A study of Mus musculus with 6 samples.

Results

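The lysyl oxidase family of the mouse has 5 genes, Lox, Loxl1, Loxl2, Loxl3 and Loxl4, and their RNA levels were compared between cultured lung fibroblasts of Mmp19 knockout and wild-type mice. Members were chosen by name, with earlier results of these data known. Array probes were assigned to them through the RefSeq accession printed beside each probe. All 5 genes were found, with 10 of the 55681 probes of the array. All 10 probes were among the 24214 tested, and the 5 genes were among 12470 named genes with a tested probe. In the knockout cells Lox and Loxl1 rose 5.47-fold and 3.50-fold on their brighter probes, where 3.30% of all genes rose. Neither gene passed the test over all probes on its dimmer probe, or with the slide of each array in the fit. Loxl2, on all but its dimmest probe, and Loxl3 had every knockout array above every wild-type array without passing the test over all probes. Such a separation was found for 21.2% of all genes. The groups overlapped for Loxl4.

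Lysyl oxidases are copper-dependent amine oxidases that cells secrete. They oxidise the side chains of lysines and hydroxylysines in collagens, and of lysines in elastin, to aldehydes, which then condense into the covalent crosslinks that make fibrils stiff and hard to degrade. All members share a C-terminal catalytic domain with a copper site. Lox and Loxl1 are made with a propeptide that tolloid proteases such as Bmp1 remove, whereas Loxl2, Loxl3 and Loxl4 carry scavenger receptor cysteine-rich domains in front of the catalytic domain. In the lung, fibroblasts are a main source of these enzymes, and crosslinking of newly laid collagen is part of established fibrosis.

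The knockout group was made of cells from mice lacking Mmp19, a matrix metalloproteinase, and the control group of cells from wild-type mice, with 3 arrays in each. All mice were labelled female and 11 weeks old, and all, controls included, had received 0.08 units of bleomycin, a drug that injures the lung, into the trachea. Fibroblasts were isolated on day 21, grown in a fibroblast medium and incubated for 72 hours, so no group without bleomycin was measured. The labels give neither the strain nor the allele, and do not say how many animals went into a culture; the series text speaks of independent experiments, and p-values here measure the spread between these 3 cultures of each genotype. In cultured cells measured in bulk, fewer cells of a type and less RNA per cell cannot be told apart.

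Signals are given as scaled signals, that is, the background-subtracted intensity of a probe divided by the 75th percentile of its array, which ran from 138 to 328 on the knockout arrays and from 190 to 290 on the wild-type arrays. Differences are log2, knockout minus wild type, with standard errors (SE) from limma, and a gene is said to have risen or fallen where limma's Benjamini-Hochberg adjusted p over all probes tested was under 0.05. Arrays that share a replicate number, 1 of either genotype, were on the same slide. The probe for Mmp19 itself was detected above background on 0 of 3 knockout and 3 of 3 wild-type arrays, a signal lower by at least 5.33-fold without the gene (limma adjusted p = 0.0160), and where this probe lies relative to the deletion is not stated. Wild-type replicate 2 stood apart within its group, with correlations of 0.939 and 0.960, against 0.984 between replicates 1 and 3. Among the knockout arrays the correlation was 0.958 between replicates 1 and 2, 0.980 between 1 and 3 and 0.986 between 2 and 3. The arrays also departed from the label of female sex. Signal of the Y-linked genes Eif2s3y and Ddx3y exceeded background on every array, with knockout-minus-wild-type differences of -3.21 and -2.47, and Xist did so only on the 3 knockout arrays. Sex, so far as it differed between the cultures, and genotype cannot be told apart in these groups. Of the genes tested 4.80% passed, 3.30% higher and 1.49% lower in the knockout, with a median difference of 0.08 over all genes. Scaling to the 75th percentile of the probes detected on all arrays moved that median to -0.03, and the higher share of the probes that passed from 62.0% to 51.9%.

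Lox, the founding member and the main crosslinking enzyme of fibrillar collagen and elastin, lies on chromosome 18 and was read by 2 probes of the same transcript. On the brighter, A_66_P138929, the scaled signal was 90.5, 95.5 and 82.4 in knockout replicates 1, 2 and 3 and 7.95, 28.6 and 19.2 in wild-type replicates 1, 2 and 3. The knockout arrays lay within 1.16-fold of each other and the wild-type arrays spread over 3.60-fold, with a clear gap between the groups: the lowest knockout array was 2.88-fold above the highest wild-type array. The log2 level was 6.48 ± 0.11 (SD, n = 3) over the knockout arrays and 4.03 ± 0.95 (SD, n = 3) over the wild-type arrays. Lox thus rose by 2.45 ± 0.45 (SE) on the log2 scale (limma adjusted p = 0.0353), and 1.23% of the genes tested had a larger rise. Within slides 1, 2 and 3 the difference was 3.51, 1.74 and 2.10. It did not pass with slide as a block (limma adjusted p = 0.0723), nor when knockout replicate 1, 2 or 3 or wild-type replicate 3 was left out (0.0881, 0.0903, 0.142 and 0.114), while it passed without wild-type replicates 1 and 2.

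The dimmer Lox probe showed the same order of groups with a smaller difference. Its scaled signal was 16.3, 27.5 and 21.7 in the knockout replicates and 2.23, 8.35 and 6.46 in the wild-type replicates. Again wild-type replicate 1 was the lowest array and the groups did not overlap. The difference was 2.12 ± 0.51 (SE), which did not pass (limma adjusted p = 0.0698). Both probes correlated at 0.981 over the 6 arrays.

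Loxl1, the member most closely tied to elastic fibres, lies on chromosome 9 and was also read by 2 probes. On the brighter, A_51_P304239, the scaled signal was 31.4, 50.1 and 40.5 in knockout replicates 1, 2 and 3 and 16.1, 6.80 and 13.6 in wild-type replicates 1, 2 and 3. The groups did not overlap, but here it was wild-type replicate 2 that lay lowest and replicate 1 that lay highest, the reverse of Lox. The log2 level was 5.32 ± 0.34 (SD, n = 3) over the knockout arrays and 3.51 ± 0.66 (SD, n = 3) over the wild-type arrays, a rise of 1.81 ± 0.37 (SE; limma adjusted p = 0.0450). The differences within slides 1, 2 and 3 were 0.97, 2.88 and 1.57. The dimmer probe gave scaled signals of 11.3, 12.8 and 14.3 in the knockout and 5.50, 1.87 and 5.26 in the wild type. Its difference, 1.75 ± 0.43 (SE), was close to that of the brighter probe and did not pass (limma adjusted p = 0.0749). The Loxl1 call did not hold with slide as a block (limma adjusted p = 0.117), and of the 6 fits without 1 array it held only without wild-type replicate 2, the low array, where the change was 1.43 (0.0329); without knockout replicates 1 to 3 and wild-type replicates 1 and 3 the adjusted p was 0.0774, 0.113, 0.181, 0.0653 and 0.127.

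**Figure D1:**
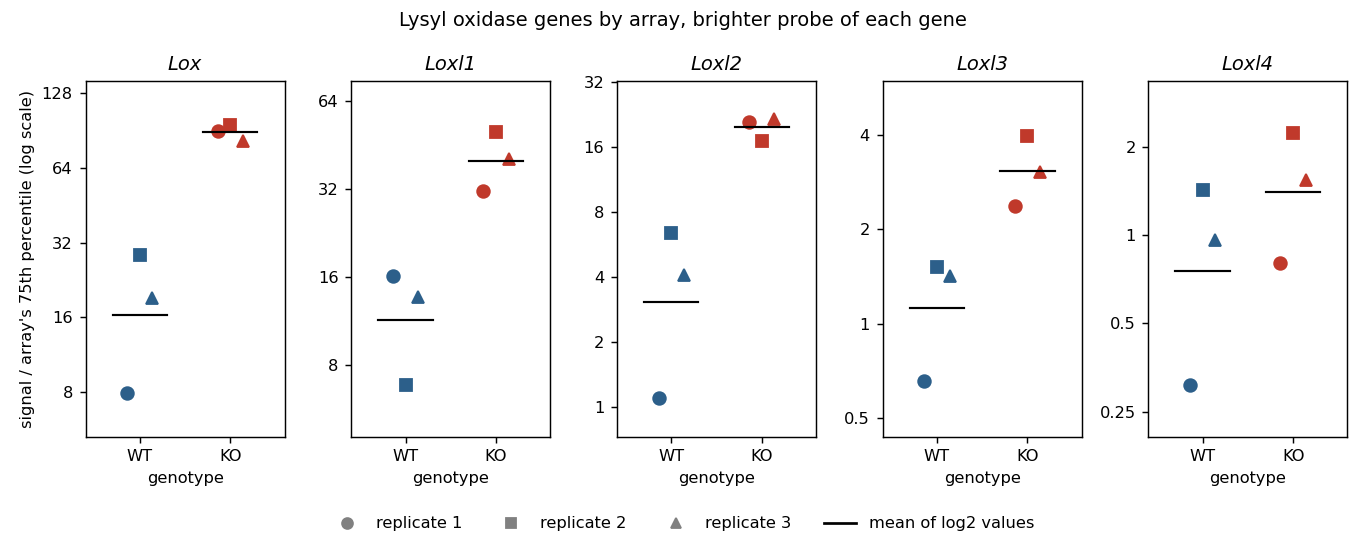
Scaled signal of the brighter probe of each lysyl oxidase gene on each array (log axis; array signal divided by the array's 75th percentile), for wild-type (WT, blue) and Mmp19 knockout (KO, red) cultures, with the marker shape giving the replicate and the line the mean of the log2 values. For Lox the knockout arrays sit between 82.4 and 95.5 and the wild-type arrays between 7.95 and 28.6; wild-type replicate 1 is the lowest array for every gene but Loxl1.

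Loxl2, which acts on type IV collagen of basement membranes as well as on fibrillar collagen, had, on its brightest probe only, a difference above that of Lox, and did not pass. The gene lies on chromosome 14 and was read by 3 probes of the same transcript. On the brightest, A_52_P480351, the scaled signal was 20.7, 17.0 and 21.5 in knockout replicates 1, 2 and 3 and 1.10, 6.35 and 4.09 in wild-type replicates 1, 2 and 3. Every knockout array was above every wild-type array, the closest pair being 2.67-fold apart, yet the wild-type arrays themselves spread over 5.79-fold. The log2 level was 4.29 ± 0.18 (SD, n = 3) over the knockout arrays and 1.61 ± 1.32 (SD, n = 3) over the wild-type arrays. The difference was 2.68 ± 0.61 (SE; limma adjusted p = 0.0604), and 4.24, 1.42 and 2.39 within slides 1, 2 and 3. Without wild-type replicate 1 it was smaller but passed (1.94; limma adjusted p = 0.0412), and leaving out wild-type replicate 2 instead it was larger and passed (3.21; 0.0266).

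The other Loxl2 probes gave smaller differences. The probe of middle brightness read 5.03, 4.54 and 5.27 in the knockout and 1.74, 3.19 and 2.58 in the wild type, without overlap, a difference of 1.03 ± 0.27 (SE; limma adjusted p = 0.0844). The dimmest read 2.18, 1.15 and 2.73 in the knockout and 0.23, 1.32 and 0.93 in the wild type. On this probe knockout replicate 2 fell below wild-type replicate 2, and the difference of 1.53 ± 0.67 (SE) did not pass (limma adjusted p = 0.251). Wild-type replicate 1 was the lowest array on all 3 probes, so they ranked it alike while giving sizes between 1.03 and 2.68.

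Loxl3, a member needed for collagen assembly in palate, spine and muscle attachment during development, lies on chromosome 6 and had 1 probe, A_55_P2277019. Its scaled signal was 2.38, 3.95 and 3.04 in knockout replicates 1, 2 and 3 and 0.65, 1.51 and 1.42 in wild-type replicates 1, 2 and 3. The groups did not overlap, with the lowest knockout array 1.57-fold above the highest wild-type array. The log2 level was 1.61 ± 0.37 (SD, n = 3) over the knockout arrays and 0.16 ± 0.67 (SD, n = 3) over the wild-type arrays, a difference of 1.45 ± 0.38 (SE; limma adjusted p = 0.0856). Within slides 1, 2 and 3 the difference was 1.86, 1.38 and 1.10, and with slide as a block it did not pass either (limma adjusted p = 0.0723).

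Loxl4, a member that is a known target of hypoxia-inducible factors and of TGF-beta signalling in other cells, lies on chromosome 19 and had the smallest difference. Its brighter probe, A_55_P2044143, read 0.80, 2.23 and 1.54 in knockout replicates 1, 2 and 3 and 0.31, 1.43 and 0.96 in wild-type replicates 1, 2 and 3. Knockout replicate 1 lay below 2 of the 3 wild-type arrays, and the difference was 0.90 ± 0.63 (SE; limma adjusted p = 0.452). The dimmer probe read 0.33, 0.79 and 0.84 in the knockout and 0.31, 0.84 and 0.52 in the wild type, a difference of 0.24 ± 0.49 (SE; limma adjusted p = 0.817). Both probes were well above background on all 6 arrays, as were all 10 probes of the family. On the brighter probe each knockout array exceeded the wild-type array of its own slide, by 1.38, 0.64 and 0.68.

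Of the 5 genes only Loxl4 had an entry in the promoter table used here (RefSeq, build GRCm38.p6), and its promoter is shown because that regulation by hypoxia and TGF-beta is a background for the lists that follow. The 250 bases before its start, chr19:42612807-42613056 on the minus strand, read 5′ to 3′, are given with matches to 5 searched motifs in capitals.

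Loxl4: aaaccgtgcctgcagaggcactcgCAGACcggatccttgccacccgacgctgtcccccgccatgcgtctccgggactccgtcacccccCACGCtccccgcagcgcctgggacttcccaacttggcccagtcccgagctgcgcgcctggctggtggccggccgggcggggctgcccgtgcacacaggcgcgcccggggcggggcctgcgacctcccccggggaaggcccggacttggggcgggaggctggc

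The motifs, searched on both strands, were ACGTG and GCGTG (the core letters bound by hypoxia-inducible factors), CAGAC (the Smad element), TATAAA and CCAAT; the matches found do not overlap each other. The window held GCGTG on the opposite strand, starting 162 bases before the gene's start, and CAGAC starting 226 bases before it, and no match to the other 3. Among 32851 promoters of the same length, 28.2% held GCGTG and 42.2% held CAGAC, so either match is common. The window was 76.0% G or C against a median of 52.4%, with 27 CG pairs against a median of 6. A match describes these letters only and not a site in use.

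**Figure D2:**
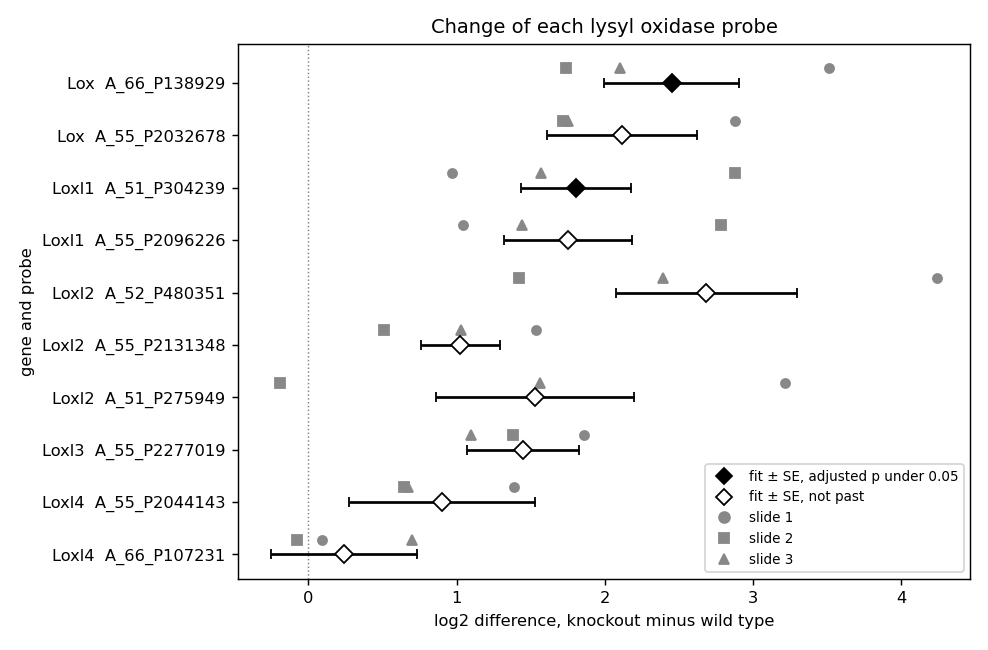
Log2 difference, knockout minus wild type, of each of the 10 lysyl oxidase probes (diamonds with SE bars from limma; black, adjusted p under 0.05) with the 3 within-slide differences above each (grey; circle, square and triangle for slides 1, 2 and 3). All 10 fitted differences lie above 0, from 0.24 to 2.68, and 8 of the 10 probes are above 0 on all 3 slides.

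Counted over the family with the brighter probe of each gene, 2 of 5 genes passed and all 5 differences were above 0, with a median of 1.81. Of all genes tested, 3.30% passed as higher and 56.3% had a difference above 0. The members were chosen with earlier results of these data known, so the counts and shares in this paragraph are a description. At an unadjusted p under 0.05, 4 of 5 members were higher, against 14.4% of all genes. Every knockout array lay above every wild-type array for 4 of 5 members, against 21.2% of all genes. With slide as a block 0 of 5 passed in limma after adjustment, against 1.17% of all genes as higher, while all 5 had an unadjusted p under 0.05, against 14.1%. The exact two-sided permutation test over arrays gave p = 0.1 for Lox, Loxl1, Loxl2 and Loxl3, the smallest that 3 arrays against 3 allow, and p = 0.4 for Loxl4.

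In wild-type replicates 1 and 2 Lox, Loxl2, Loxl3 and Loxl4 deviated from their means in like directions, and Loxl1 went the other way. In knockout replicates 1 and 2 Loxl1 deviated in the same direction as Loxl3 and Loxl4, and opposite to Loxl2, which was at 0.08 and -0.21. Wild-type replicate 1 lay below the wild-type mean for Lox, Loxl2, Loxl3 and Loxl4, by -1.04, -1.48, -0.78 and -1.29 on the log2 scale, and above it for Loxl1, by 0.49. Wild-type replicate 2 showed the opposite, with Lox, Loxl2, Loxl3 and Loxl4 above the mean by 0.81, 1.06, 0.43 and 0.93 and Loxl1 below it by -0.75. In the knockout, deviations of Lox and Loxl2 stayed within 0.21 of the mean, and those of Loxl4 reached -0.80 and 0.67. There Loxl1 ran with Loxl3, at -0.35, 0.33 and 0.02 against -0.36, 0.37 and -0.01 in replicates 1, 2 and 3. Over the 6 arrays the deviations of Lox correlated with those of Loxl2, Loxl3 and Loxl4 at 0.969, 0.868 and 0.845, and with those of Loxl1 at -0.736. These are descriptions over 6 arrays that share 1 scaling factor each, and they rest mostly on wild-type replicates 1 and 2.

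**Figure D3:**
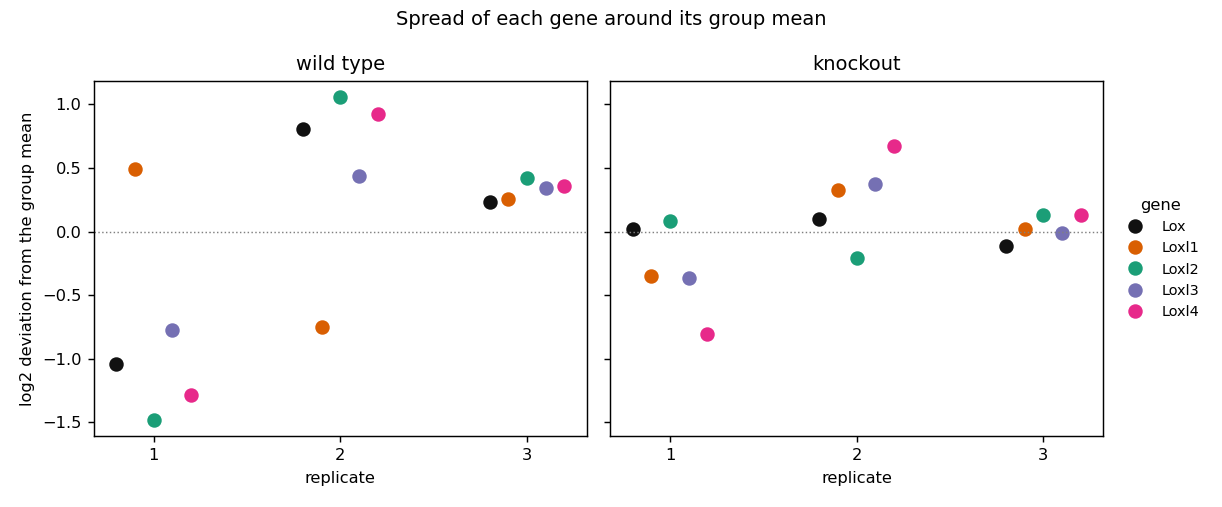
Log2 deviation of the brighter probe of each lysyl oxidase gene from its group mean, by replicate, for wild-type (left) and knockout (right) cultures. In wild-type replicate 1 Loxl1 sits at 0.49 while the other 4 genes sit between -0.78 and -1.48, and in replicate 2 the order is turned.

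Ratios between members within an array do not depend on how arrays were scaled, and set the change of 1 member against that of another. The log2 ratio of Lox to Loxl4 was 5.99 ± 0.73 (SD, n = 3) over the knockout arrays and 4.44 ± 0.21 (SD, n = 3) over the wild-type arrays, so that Lox differed from Loxl4 by 1.55 ± 0.44 (SE) more in the knockout, with no overlap of the groups. The ratio of Loxl2 to Loxl4 differed by 1.78 ± 0.52 (SE), that of Loxl2 to Loxl3 by 1.24 ± 0.49 and that of Lox to Loxl3 by 1.0 ± 0.27, also without overlap. Each of these 4 had an exact two-sided permutation p of 0.1, the smallest possible, and 0.25 after adjustment over the 10 pairs. The ratio of Lox to Loxl2 differed by -0.23 ± 0.27 (SE). That of Lox to Loxl1 differed by 0.64 ± 0.91, since it ran from -1.02 in wild-type replicate 1 to 2.07 in wild-type replicate 2 and only from 0.93 to 1.53 in the knockout. With 3 arrays against 3 no pair could pass this test, so it does not bear on whether the members changed unequally. The values also rest on the brighter probes: the middle Loxl2 probe, with a difference of 1.03, lay below Loxl3 at 1.45, so with that probe the Loxl2 to Loxl3 comparison turns the other way.

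The genes whose levels over the 6 arrays were most like each member, of 12062 named genes compared, correlated with it between 0.997 and 0.999. For Lox these were Vcl, which encodes the focal adhesion protein vinculin, Cdhr1 and Vill. For Loxl1 they were Lrfn1, the transcription factor gene Fos and Hes6. For Loxl2 they were Slc44a1, Tex11 and the adhesion scaffold gene Nedd9, for Loxl3 the kinase gene Lats2, Ostm1 and Adamtsl1, and for Loxl4 Mrpl43, the growth factor gene Gdf6 and Plekhb1. With so many genes and 6 arrays such values are reached easily, and they are given as a description. The 10 tested genes that lie nearest to the members on their chromosomes, 1 on each side, had differences from -0.02 to 1.65; 0 of them passed in limma, and 3 had an unadjusted p under 0.05.

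Genes of linked processes were followed in 10 lists, which held 107 distinct tested genes apart from the members. Of these 11 rose and 0 fell (limma; 40 had an unadjusted p under 0.05 in either direction). Over all genes tested 3.30% rose and 1.49% fell, and 14.4% were higher at an unadjusted p under 0.05. That last share counts higher genes only, whereas 2 of the 40 list genes, Mt1 and Mt2, were lower. With slide as a block 2 of the 11 passed, Fmod and Col4a6. Leaving out 1 array gave between 1 gene, with replicate 3 of either genotype left out, and 15, with wild-type replicate 2 left out; it was 4 with replicate 1 of either genotype left out and 5 for knockout replicate 2.

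Some of the collagens that lysyl oxidases crosslink rose. Of 6 tested fibrillar collagen genes 3 rose and 0 fell, all 6 had an unadjusted p under 0.05, and the median difference was 1.37. Over all genes 3.30% rose and 14.4% were higher at that unadjusted p. Col3a1, Col5a1 and Col5a2 did not pass, at 3.32, 1.08 and 1.27 (limma adjusted p = 0.0621, 0.201 and 0.145). Col1a1, a chain of type I collagen, had scaled signals of 385, 219 and 256 in the knockout and 92.7, 103 and 107 in the wild type, and Col1a2, the other chain, of 261, 236 and 315 against 88.5, 139 and 118. Neither gene's groups overlapped, and the wild-type arrays lay closer together than those of Lox. Col1a1 rose by 1.47 ± 0.26 (SE; limma adjusted p = 0.0307), Col1a2 by 1.25 ± 0.25 (0.0415) and Col11a1, a minor fibrillar chain, by 1.93 ± 0.27 (0.0172), and once slide was a block the limma adjusted p was 0.0845, 0.0944 and 0.0706. Of 5 tested type IV collagen genes 2 rose and 0 fell, against 3.30% of all genes that rose. Their median was 1.92, and 4 were higher at an unadjusted p under 0.05 in limma, against 14.4% of all genes. Col4a1, Col4a2 and Col4a4 did not pass, at 2.35, 2.03 and 0.35 (limma adjusted p = 0.130, 0.128 and 0.642). The 2 were Col4a6, by 1.92 ± 0.23 (SE; limma adjusted p = 0.0114) on its brighter probe and 0.57 without passing on the other, and Col4a5, by 1.08 ± 0.21 (0.0395; 0.0824 with slide as a block). Col1a2 and Col4a5 each passed in only 5 of 17 alternatives, against 10 for Col1a1, 13 for Col11a1 and 14 for Col4a6.

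Among genes that activate lysyl oxidases or place them in the matrix, 3 of 12 tested rose and 0 fell, with a median difference of 0.98. Over all genes 3.30% rose. At an unadjusted p under 0.05 in limma 8 of the 12 were higher, against 14.4% of all genes. Fmod encodes fibromodulin, a collagen-binding proteoglycan that brings Lox to collagen. Its scaled signal was 1.26, 1.41 and 1.42 in the knockout and 0.12, 0.13 and 0.17 in the wild type, a rise of 3.32 ± 0.22 (SE; limma adjusted p = 0.00264). Only 1 wild-type array was well above background, so Fmod was tested only through the knockout and the size is uncertain. The lowest Fmod difference among the alternatives was 1.92. Adamts2, a procollagen N-proteinase that can also cleave Lox, rose by 1.44 ± 0.20 (SE; limma adjusted p = 0.0176) on its brighter probe and differed by 1.52 ± 0.61 on the other, which did not pass. Thbs1, thrombospondin 1, a matrix protein that binds the Lox precursor, rose by 1.13 ± 0.20 (SE; limma adjusted p = 0.0318). Both lost their call with slide as a block (limma adjusted p = 0.0670 and 0.0837).

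Of 17 tested genes of elastin and its scaffold 0 rose and 0 fell (limma), and 16 differences were above 0, against 56.3% of all genes. An unadjusted p under 0.05 was reached by 5 of the 17, all higher, against 14.4% of all genes, and the median was 0.52. Fbln5, fibulin 5, an elastic fibre protein that binds Loxl1, differed by 1.55 ± 0.47 (SE; limma adjusted p = 0.124) on its brighter probe. Its dimmer probe rose by 3.73 ± 0.39 (limma adjusted p = 0.00713), so the probes of this gene disagree on the call. Efemp2, fibulin 4, which binds Lox, differed by 0.90 ± 0.25 (SE; limma adjusted p = 0.102).

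Of 16 tested genes for hydroxylation and folding of collagen 1 rose and 0 fell, against 3.30% of all genes that rose. At an unadjusted p under 0.05 in limma 8 of the 16 were higher, against 14.4% of all genes. All 16 differences were above 0, as were 56.3% over all genes, and the median was 0.73. The gene that passed was P4ha1, a subunit of the prolyl hydroxylase, which rose by 1.69 ± 0.30 (SE; limma adjusted p = 0.0316) on its brighter probe and by 1.33 ± 0.24 (0.0316) on the other, and did not pass once slide was a block (0.0872). Its scaled signal was 7.15, 9.84 and 9.63 in the knockout and 3.39, 1.84 and 3.24 in the wild type, lowest in wild-type replicate 2, as for Loxl1.

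The copper genes and the other amine oxidases had medians below 0, against 0.08 over all genes. Of 8 tested genes of copper uptake, transport and storage 0 rose and 0 fell (limma), where 3.30% of all genes rose and 1.49% fell. In lists this short 0 calls lie near those shares. The copper median was -0.16. At an unadjusted p under 0.05 in limma 0 copper genes were higher, against 14.4% of all genes, and 2 were lower. These 2 were the metallothionein genes Mt1 and Mt2, which encode metal-binding proteins, at -0.74 ± 0.21 and -0.82 ± 0.29 (SE; limma adjusted p = 0.108 and 0.166). Of 5 tested amine oxidases outside the family 0 rose and 0 fell (limma), with a median of -0.02. The monoamine oxidase genes Maob and Maoa differed by 1.32 ± 0.43 and 1.09 ± 0.42 (SE; limma adjusted p = 0.146 and 0.200), the 2 of this list with an unadjusted p under 0.05.

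Pathways known to induce lysyl oxidases in other cells had 1 call each, where 3.30% of all genes rose. At an unadjusted p under 0.05 in limma, 2 TGF-beta genes and 4 hypoxia genes were higher, against 14.4% of all genes. In the TGF-beta list 1 of 13 tested genes rose and 0 fell, with a median of 0.27. It was Tgfbr2, a TGF-beta receptor, by 1.21 ± 0.26 (SE; limma adjusted p = 0.0492), on 1 of its 2 probes and in 3 of 17 alternatives. In the hypoxia list 1 of 18 rose and 0 fell, with a median of 0.45, namely Ndrg1, by 1.30 ± 0.26 (SE; limma adjusted p = 0.0436; 0.114 with slide as a block). Of 9 tested genes linked to Snail, a transcription factor that Loxl2 can bind, 0 rose and 0 fell (limma), 1 had an unadjusted p under 0.05, and the median was -0.15. Zeb1 differed by 0.51 ± 0.20 and Cdh2, N-cadherin, by -0.73 ± 0.32 (SE; limma adjusted p = 0.210 and 0.250).

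**Figure D4:**
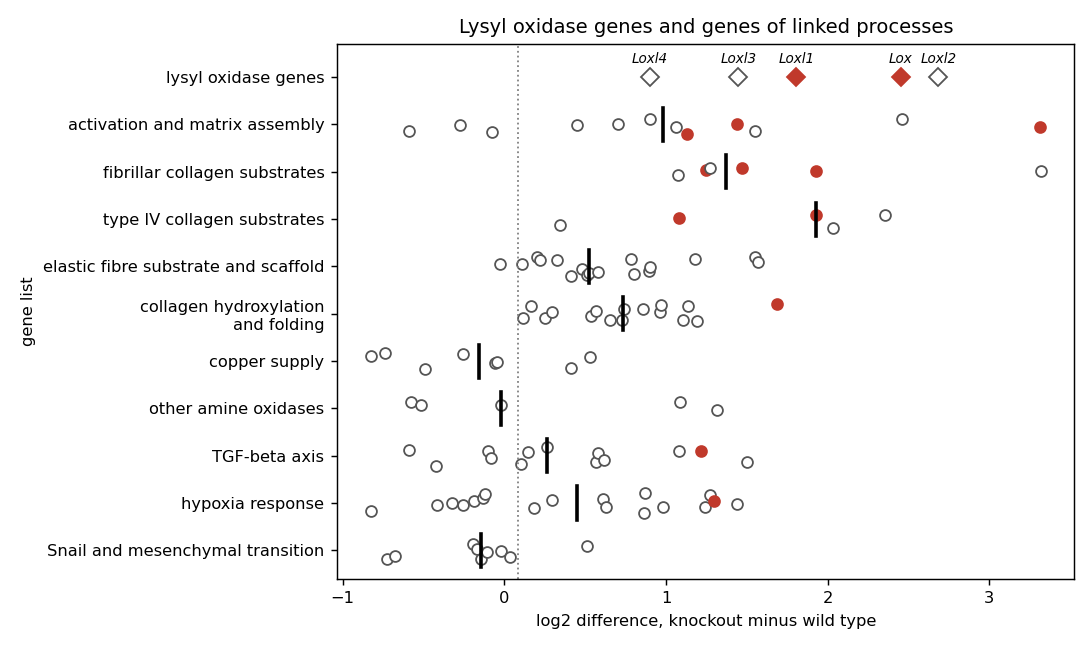
Log2 difference, knockout minus wild type, of the 5 lysyl oxidase genes (diamonds) and of the tested genes of 10 lists (circles; vertical offsets are for legibility), with red for an adjusted p under 0.05, a black bar for each list's median and a dotted line for the median of all genes, 0.08. The medians of the lists run from -0.16 for copper supply to 1.92 for type IV collagens.

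Markers of the labelled cell type were present: all 11 fibroblast markers were tested, 2 of them, the type I collagen genes, rose and 0 fell, and their summed scaled signal was 2090 to 2328 in the knockout and 1212 to 2090 in the wild type. Mesothelial markers moved with genotype: of 9 listed, 7 were tested, 5 rose and 0 fell, Calb2 was not well above background on any array and Muc16 was not matched to a probe. Of the risers, Bnc1 was well above background on 1 wild-type array and Upk3b and Lrrn4 on 2, so they could be tested only through the knockout and their sizes are uncertain; Bnc1 was at 4.18, and at 2.34 with normexp. Wt1, detected on all 6 arrays, rose by 3.78 ± 0.76 (SE; limma adjusted p = 0.0436). With only probes detected on all arrays 2 mesothelial genes passed. The summed scaled signal of the list was 40.5, 111 and 75.9 in knockout replicates 1, 2 and 3 and 1.77, 16.1 and 9.18 in wild-type replicates 1, 2 and 3, so wild-type replicate 1 was lowest, as for Lox, Loxl2, Loxl3 and Loxl4. Of 9 pericyte and smooth muscle markers 6 were tested, 2 rose and 0 fell, and Abcc9 was not well above background on any array. At an unadjusted p under 0.05 in limma, 2 were higher and 1 was lower. Differences ran from -1.31 to 2.98, with 4 of 6 above 0. Over all genes tested 3.30% rose. The 2 that rose, Myh11 and Des, were well above background on 2 and 1 wild-type arrays and were tested only through the knockout; neither is tested where only probes detected on all arrays are kept. The summed signal was 323 to 380 in the knockout and 74.0 to 444 in the wild type, again lowest in wild-type replicate 1. The part of these cell types in the lysyl oxidase differences was not tested. Epithelial, macrophage and endothelial markers gave 0 calls among 9, 4 and 4 tested genes (limma; 1, 1 and 0 with an unadjusted p under 0.05). With slide as a block 1 epithelial gene passed, the keratin gene Krt18, at 2.55 (limma adjusted p = 0.0468, and 0.0941 without the block), and it also passed without knockout replicate 1. Krt18 was the only 1 of the 9 tested epithelial genes with a difference above 0, and the median of that list was -0.16. Among the defining markers of these cell types Epcam and Nkx2-1, Mrc1, and Emcn, Tek and Tie1 were not well above background on any array. Their summed signals were 56.8 to 62.7 in the knockout and 44.0 to 55.7 in the wild type for epithelial, 45.1 to 109 and 55.9 to 66.9 for macrophage, and 3.33 to 4.74 and 3.61 to 5.14 for endothelial markers.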

How the data were processed

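Per the labels, 0.5 µg of total RNA from each culture was labelled with Cy3 and read on an Agilent array of 1 colour. The deposited scanner tables hold spot intensities with local background subtracted by Agilent Feature Extraction 10.7.3.1, per the file headers; the submitters' processing notes give 9.1 instead, a discrepancy that remains. Per the file headers the design uses mm9. A second deposited table gives log2 values for 35844 probes (column medians 5.51 to 5.76, correlating with their own arrays at 0.996 or more); its between-array normalization and centring are not given in the sources used here, and it served as an alternative.

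Control and outlier-flagged spots were left out, spots of 1 probe were averaged as log2 intensities, and each array's 75th percentile was subtracted. A probe was tested if all 3 arrays of either group showed it well above background, and saturation was absent. The comparison used limma 3.58.1 (lmFit, eBayes; R 4.3.3) with two-sided p-values adjusted after Benjamini-Hochberg over 24214 probes. Of 55681 probes 26413 (47.4%) were named by unversioned accession through the RefSeq table of GRCm38.p6, from which only names, chromosomes, gene order and the promoter were taken. The tested probe with the highest mean stood for a gene. The "at least" bound for Mmp19 sets the wild-type mean against, on each knockout array, whichever is higher of the probe's signal and the dimmest signal that was well above background there. The fit was tested on simulated data.

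Named genes were the members, Mmp19, from each list up to 4 genes that passed with the largest change, or the 2 with the smallest p where none passed, and the 3 genes most correlated with each member. Members and lists were chosen with earlier results of these data known. Within slides 1, 2 and 3 the deviations of both arrays from their group means correlated at 0.096, -0.021 and 0.210, and arrays were not paired; slide and replicate number coincide and were fitted as 1 block. The files hold no mean signal, so normexp used the median signal with an offset of 50.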

Additional observations from a re-analysis of the deposited data

How the results depend on the processing

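Every alternative that was run kept the direction of the 5 lysyl oxidase genes, with log2 changes from 1.93 to 2.85 for Lox, 1.43 to 2.05 for Loxl1, 1.03 to 3.21 for Loxl2, 1.06 to 1.66 for Loxl3 and 0.24 to 1.36 for Loxl4, counting other probes; the calls were less stable, and 3 arrays a group limit the precision of all. Lox passed in 11 of 19 alternatives, Loxl1 in 9 of 19, Loxl2 in 4 of 20, Loxl3 in 1 of 17 and Loxl4 in 0 of 19. With the replicate block (slide as a block) 385 probes, 0 members and 2 list genes passed, against 1124, 2 and 11, and Lox (2.45) and Loxl1 (1.81) lost their calls. Without a filter on dim probes, where 55681 probes were tested, 113 probes, 0 members and 1 list gene passed, and Lox (2.45), Loxl1 (1.81) and Mmp19 (-4.62; adjusted p = 0.0551) lost theirs. In the authors' log2 table there were 429 probes, 0 members and 5 list genes that passed, with Lox at 2.25 and Loxl1 at 1.62 (adjusted p = 0.102 and 0.0819). Array weights gave 5962 probes, 4 members (Loxl2 at 2.68 and Loxl3 at 1.31 now passing) and 42 list genes. With normexp 633 probes passed, Loxl2 passed (2.49; adjusted p = 0.0450) and Mmp19 did not (-1.40); 650 probes passed over those detected on all arrays, which leaves Mmp19 and Fmod without a value. On its dimmer probe Lox was at 2.12 and on its dimmer probe and probe mean Loxl1 was at 1.75 and 1.78 (adjusted p = 0.0698, 0.0749 and 0.0565). Loxl2 passed without wild-type replicate 1 (1.94) and 2 (3.21). Leaving out 1 array gave 107 to 1716 probes, 0 to 3 members and 1 to 15 list genes; Mmp19 ran from -5.31 to -4.24 and lost its call without knockout replicate 3 (0.0900) or wild-type replicate 3 (0.0774). Among the ratios, Lox to Loxl1 turned to -0.12 and Loxl1 to Loxl2 to 0.11 without wild-type replicate 1, and Loxl1 to Loxl3 to -0.23 without wild-type replicate 2; ranges without 1 array were -0.12 to 1.42, -1.78 to 0.11 and -0.23 to 0.99. The cause of these differences was not tested.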
